A study of Homo sapiens with 2 samples.

Results

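S100 proteins are small calcium-binding proteins found in vertebrates. Most of them pair into dimers, open a binding face when their EF-hand motifs take up calcium, and then attach to other proteins such as annexins, myosins or ezrin. Most of the human genes lie in a cluster on the long arm of chromosome 1, next to genes of the skin barrier, and S100P lies apart on chromosome 4. In carcinomas, S100A4 and S100P are known for links with cell motility and spread.

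The 10 genes described here are S100A2, S100A3, S100A4, S100A6, S100A10, S100A11, S100A13, S100A14, S100A16 and S100P, of 19775 genes named alone by a probe set. They were taken with every probe set of the array annotated to exactly 1 gene, that gene being one of the 10, which gave 13 probe sets. The genes were chosen by their log2 signals and differences in these same arrays, so the values are a description and no test is made of them. The cells were A549, a human lung adenocarcinoma line, and their transcripts were measured with Affymetrix Human Genome U133 Plus 2.0 arrays. A549-ZNF300 cells carried the LV5 lentiviral vector with the coding sequence of ZNF300, a KRAB zinc finger protein, and A549-LV5 cells carried LV5 with a random DNA sequence, which the study also calls A549-ZNF300-NC. Both vectors also carry green fluorescent protein and puromycin resistance, so both cultures share these. The comparison asks which genes differ when ZNF300 is overexpressed. Each condition had 1 array. Differences therefore have no replicates behind them, p-values are not given, and the precision is limited by the number of arrays.

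Values are log2 signals as the authors deposited them, and a log2 ratio is that of A549-ZNF300 over A549-LV5. The median over all probe sets was 6.03 in A549-ZNF300 and 6.14 in A549-LV5. Detection required that a probe set reach the array median in at least 1 of the arrays. A gene took its detected probe set with the highest mean signal. The signal of ZNF300 itself was 8.91 in A549-ZNF300 and 4.16 in A549-LV5.

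Of the 10 S100 genes, 9 were detected. Among these, 6 were higher by 2-fold or more in A549-ZNF300, against 13.6% of all 13221 detected genes, and 0 were lower by 2-fold or more, against 15.4%. By sign alone, 8 of the 9 were higher, against 46.6% of detected genes. Where both signals reached the array median, 5 of 8 S100 genes were higher by 2-fold or more, against 9.31% of 11192 genes. These 5 include S100A4 and S100A3, for which the authors' detection calls in A549-LV5 were absent and marginal. The median log2 ratio was 1.19 over the 9 S100 genes and -0.06 over all detected genes. Because the genes were chosen with these ratios known, the shares are set side by side only. By probe sets, 12 of 13 were detected and 7 of the 12 were at least 2-fold higher, against 13.6% of 25145 detected probe sets. By sign, 10 of the 12 were higher, against 47% of probe sets.

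**Figure D1:**
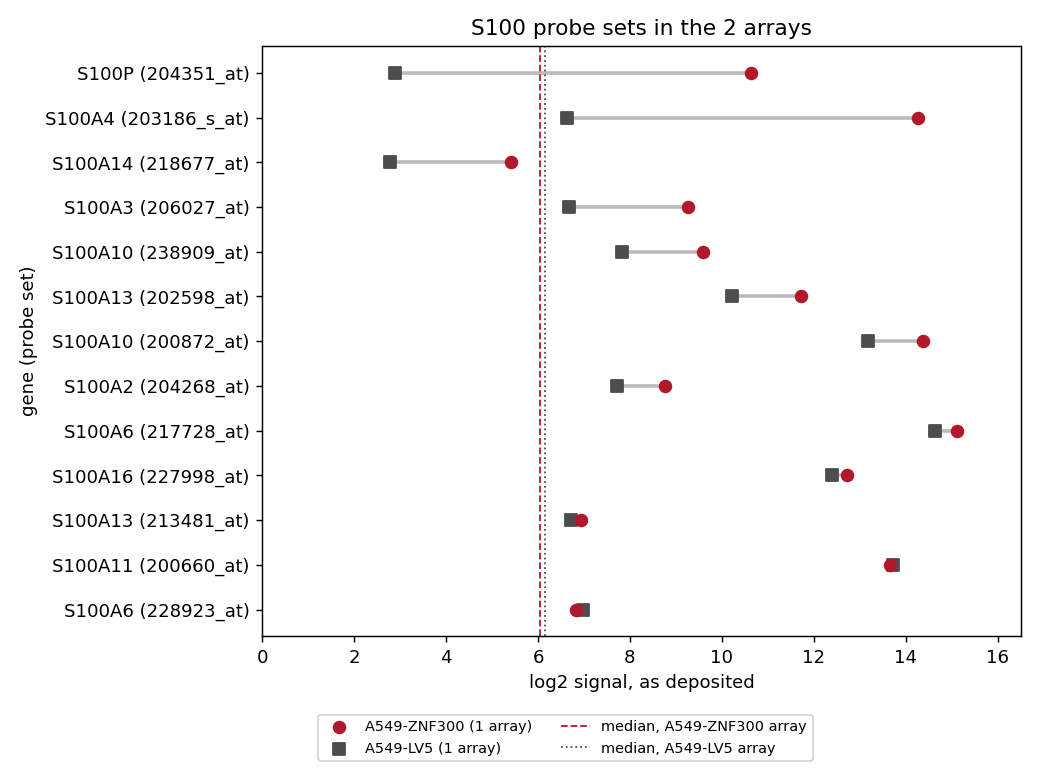
Log2 signal, as deposited, of the 13 S100 probe sets (rows, highest log2 ratio at the top) in the A549-ZNF300 array (red circles) and the A549-LV5 array (grey squares), with the median of each array as a dashed or dotted line. S100P and S100A4 are the rows with the widest gaps (log2 ratios of 7.76 and 7.63), and S100A14 lies below the median in both arrays.

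S100A4 and S100P were the members with the largest log2 ratios. S100A4, which binds non-muscle myosin and is also called metastasin, gave 14.27 (log2 signal) in A549-ZNF300 and 6.64 in A549-LV5 (probe set 203186_s_at). This is a log2 ratio of 7.63. The authors' detection call was present in A549-ZNF300 and absent in A549-LV5, although the signal there lay above the array median, so the ratio is over a signal not told apart from background and no fold is given. S100P, a placental protein that binds ezrin, gave 10.64 (log2 signal) in A549-ZNF300 and 2.88 in A549-LV5 (204351_at). It was called present in A549-ZNF300 and absent in A549-LV5. The log2 ratio was 7.76, and it was 4.50, or 22.6-fold, when the A549-LV5 signal was raised to the median of its array.

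The promoters of S100A4 and S100P share a match to the TATA box. The RefSeq windows of 250 bases before to 50 bases after the start were searched on both strands for the TATA box, the AP-1 motif, the E-box and the GC box. The letters searched were TATAAA for the first of these. TATAAA was found 31 bases before the start of S100A4 and 28 bases before that of S100P, and 11.5% of 35116 promoters of the same length hold it. Of the other members, only S100A13 had a match, in 1 of its 3 windows, 29 bases before the start. The windows of both genes are shown here because these genes had the largest differences, S100A3 because it adjoins S100A4 on the chromosome, and S100A11 because its signals were nearly equal. Capitals mark matches to the motifs searched, and no match overlaps one to another motif.
S100A4: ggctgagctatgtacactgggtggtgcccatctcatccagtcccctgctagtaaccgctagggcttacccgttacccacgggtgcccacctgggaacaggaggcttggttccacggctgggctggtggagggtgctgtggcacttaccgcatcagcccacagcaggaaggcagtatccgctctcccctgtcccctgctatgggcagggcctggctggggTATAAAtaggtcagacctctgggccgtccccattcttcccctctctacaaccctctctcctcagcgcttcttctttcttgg
S100P: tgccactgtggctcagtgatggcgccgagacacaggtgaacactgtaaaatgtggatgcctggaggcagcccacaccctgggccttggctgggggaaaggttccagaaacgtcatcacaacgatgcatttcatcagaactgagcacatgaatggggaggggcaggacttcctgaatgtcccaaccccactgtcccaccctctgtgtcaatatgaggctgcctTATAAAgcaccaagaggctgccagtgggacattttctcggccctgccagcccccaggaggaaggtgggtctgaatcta
S100A3: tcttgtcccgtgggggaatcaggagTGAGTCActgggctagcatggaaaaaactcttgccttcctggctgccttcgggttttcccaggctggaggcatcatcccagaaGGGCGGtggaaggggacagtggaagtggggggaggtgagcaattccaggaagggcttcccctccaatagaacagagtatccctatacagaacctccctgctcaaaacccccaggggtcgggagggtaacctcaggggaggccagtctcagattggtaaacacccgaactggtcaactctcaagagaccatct
S100A11: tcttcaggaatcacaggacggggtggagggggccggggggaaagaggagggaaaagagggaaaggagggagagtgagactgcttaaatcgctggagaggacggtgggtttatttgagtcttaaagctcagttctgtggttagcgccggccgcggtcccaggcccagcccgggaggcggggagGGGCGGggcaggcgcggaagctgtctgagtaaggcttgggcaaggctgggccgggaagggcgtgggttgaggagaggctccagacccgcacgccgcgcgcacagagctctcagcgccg

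On GRCh38.p14, the S100A4 window is chr1:153545757-153546056 on the minus strand and the S100P window is chr4:6693628-6693927 on the plus strand. The S100A3 window is chr1:153549209-153549508 and the S100A11 window is chr1:152036955-152037254, both on the minus strand. The AP-1 motif, searched as TGANTCA, was found in S100A3, 225 bases before the start, and in 1 of the 2 windows of S100A2, 52 bases before it, while 7.71% of all promoters hold it. The GC box, searched as GGGCGG, was found in S100A3, S100A6 (3 matches, some overlapping), S100A10, S100A11 and 1 window each of S100A13 and S100A16, and 45% of all promoters hold it. The E-box, searched as CACGTG and held by 7.26% of promoters, had no match in any S100 window. The number of CG dinucleotides was 8 in S100A4, 5 in S100P, 5 in S100A3 and 5 in S100A14, which was not detected. It was 22 in S100A11, 31 in S100A6 and 32 in S100A10. Over all promoters the median was 14 and the lower quartile 4. S100A10, with the highest of these counts, was past 2-fold upwards too. The count was 3 and 8 in the windows of S100A16 (log2 ratio 0.32), so few CG dinucleotides were found beside a small ratio too. It was 4 and 5 in the windows of S100A2 and 11, 12 and 19 in those of S100A13, both genes past 2-fold upwards. A match of letters is a description and not a binding site.

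The annexin partners among the S100 genes differed from each other. S100A10, also called p11, forms a complex with annexin A2 and has lost the ability to bind calcium. It gave 14.37 (log2 signal) in A549-ZNF300 and 13.18 in A549-LV5 (200872_at), which is 2.28-fold higher. Its other probe set, 238909_at, had 9.60 in A549-ZNF300 and 7.83 in A549-LV5, or 3.41-fold. All 4 of these signals were called present, so both probe sets of S100A10 passed the 2-fold mark in the same direction. S100A11, which pairs with annexin A1, had 13.66 in A549-ZNF300 and 13.73 in A549-LV5 (200660_at), a log2 ratio of -0.07. S100A11 was thus bright in both arrays, and the sign of its small ratio turned to 0.04 with median centring of the arrays.

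S100A13 and S100A3 were also higher in A549-ZNF300. S100A13 takes part in the export of FGF1 and interleukin-1 alpha, which leave cells without a signal peptide. It gave 11.72 (log2 signal) in A549-ZNF300 and 10.22 in A549-LV5 (202598_at), 2.83-fold higher. The second probe set of S100A13, 213481_at, had 6.94 in A549-ZNF300 and 6.71 in A549-LV5, a log2 ratio of 0.22, so the higher signal rests on 1 of its 2 probe sets. S100A3 is a cysteine-rich member known from the hair cuticle. It had 9.27 in A549-ZNF300, where it was called present, and 6.67 in A549-LV5, where it was called marginal (206027_at). This is 6.08-fold higher, but over an A549-LV5 signal close to that of S100A4 (6.64), which was called absent, so the fold is uncertain.

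S100A2, a member of basal epithelial cells, lay closest to the 2-fold mark among the genes past it. It gave 8.76 (log2 signal) in A549-ZNF300 and 7.72 in A549-LV5 (204268_at), which is 2.07-fold, and both signals were called present. With the arrays centred on 10 housekeeping genes, which lowers every log2 ratio by 0.24, S100A2 (0.81) and S100A10 (0.95) lay under 2-fold, and 4 of the 9 S100 genes remained past it. The share of all detected genes past 2-fold under this centring was not computed, and the share given for signals as deposited is not its match. With 16 added to the linear signals, S100A2 alone fell short (0.99).

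S100A6 and S100A16 were bright in both arrays and under 2-fold apart. S100A6, also called calcyclin, gave 15.11 (log2 signal) in A549-ZNF300 and 14.65 in A549-LV5 (217728_at), a log2 ratio of 0.46. Its dimmer probe set, 228923_at, had 6.83 in A549-ZNF300 and 6.98 in A549-LV5, so the 2 probe sets went opposite ways by small amounts. S100A16 had 12.72 in A549-ZNF300 and 12.40 in A549-LV5 (227998_at), a log2 ratio of 0.32. S100A14 had 5.42 in A549-ZNF300 and 2.78 in A549-LV5 (218677_at). Both of its signals lay below the array medians, so it was not counted as detected and no fold is given.

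The 3 members with 2 probe sets show how far probe sets of 1 gene can differ within these arrays. The SD of the log2 ratio between the 2 probe sets was 0.41 for S100A10, 0.43 for S100A6 and 0.90 for S100A13. Over 6607 genes with at least 2 detected probe sets, the median of this SD was 0.35. It describes probe sets and does not replace replicate arrays. The log2 ratios of S100A11, S100A16 and S100A6 lay below or near this size, and those of S100A4 and S100P were many times larger. S100A4, S100P and the other members with 1 probe set have no second reading.

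The remaining S100 genes were dim in both arrays. S100A1, S100A5, S100A7, S100A7A, S100A8, S100A9, S100A12, S100B, S100G and S100Z have 13 probe sets together, of which 0 reached the array median in either array. S100A8 and S100A9, the calprotectin subunits of myeloid cells, were among them. The 5 fused-type S100 genes with a probe set, which carry an S100 domain in a long skin barrier protein (FLG, FLG2, RPTN, TCHH and CRNN), were not detected either. Over both lists the highest log2 signal was 5.39 in A549-ZNF300 and 5.91 in A549-LV5.

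Genes beside the cluster were mostly under 2-fold apart, as were all but 29% of detected genes (13.6% past 2-fold upwards and 15.4% downwards). In the order of genes on chromosome 1, taken from RefSeq for GRCh38.p14 and used for order only, S100A10 and S100A11 come first, then skin barrier genes, and then S100A6, S100A4, S100A3, S100A2, S100A16, S100A14 and S100A13. The 20 detected genes before S100A10 had a median log2 ratio of -0.19, with 1 gene past 2-fold upwards and 3 past it downwards. The 20 detected genes after S100A13 had a median of -0.03, with 0 past 2-fold upwards and 2 past it downwards. The highest was SELENBP1, a selenium-binding protein gene before S100A10, at 6.97 with a signal below the array median in A549-LV5, and the lowest was IL6R, the interleukin-6 receptor gene after S100A13, at -1.23.

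Within the cluster, neighbouring genes did not share 1 value. S100A6, S100A4 and S100A3 follow each other among the detected genes and had log2 ratios of 0.46, 7.63 and 2.60. S100A2, next in the row, had 1.05, and S100A16 after it had 0.32. Between S100A11 and S100A6, 7 other genes were detected, with 3 past 2-fold upwards and 1 downwards, against 13.6% and 15.4% of all detected genes. The 3 were CCDST, KPLCE and SPRR4, all below the array median in A549-LV5, and the 1 was LINC01527, below it in A549-ZNF300. These 4 genes are named because of their values. Once dim signals were set to the array median, SPRR4, a small proline-rich protein of the cornified envelope, had a log2 ratio of 0.90, KPLCE one of 0.40, CCDST one of -0.10 and LINC01527 one of -0.22, so none of the 4 stayed past 2-fold.

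**Figure D2:**
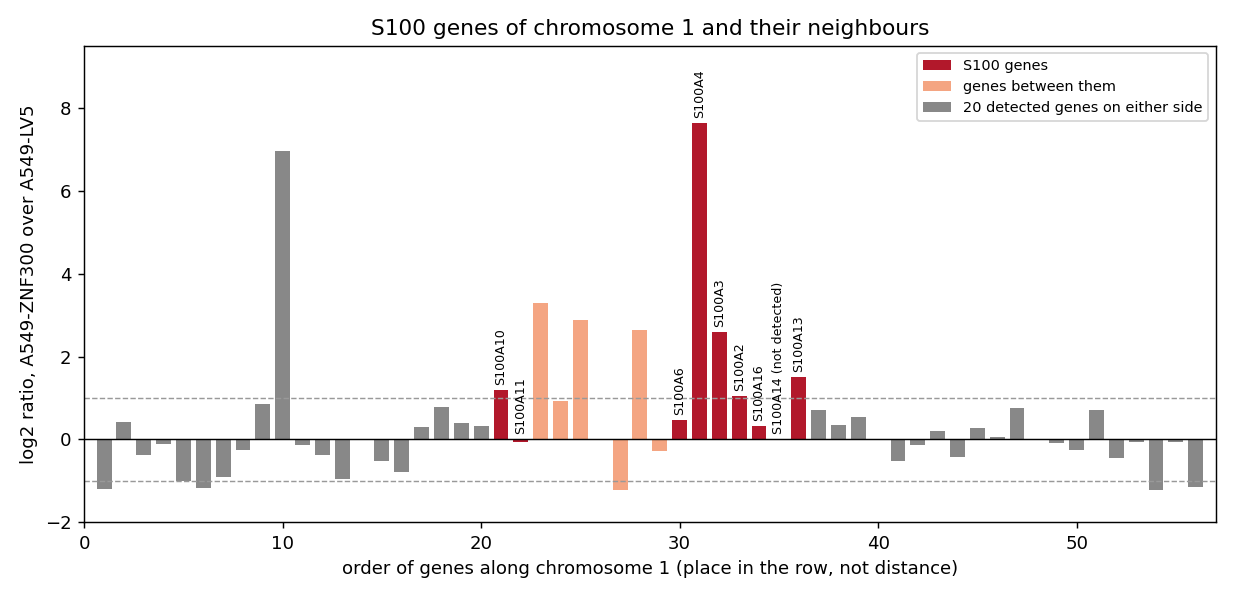
Log2 ratio of A549-ZNF300 over A549-LV5 (vertical axis) for detected genes in their order along chromosome 1 (horizontal axis, places and not distances), with S100 genes in red, genes between them in orange and the 20 detected genes on either side in grey. Dashed lines mark 2-fold. S100A4 reaches 7.63 beside S100A6 at 0.46, and the flanking genes have medians of -0.19 and -0.03.

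The annexins are calcium-dependent membrane-binding proteins with which several S100 proteins pair. Of 12 annexin genes, 11 were detected, with 3 past 2-fold upwards and 0 past it downwards, against 13.6% and 15.4% of all detected genes. The median of their log2 ratios was 0.11, and it was 0.90 without _x_at and _s_at probe sets. ANXA2, the partner of S100A10, gave 14.83 (log2 signal) in A549-ZNF300 and 14.72 in A549-LV5, a log2 ratio of 0.11, while its 4 detected probe sets ran between 0.04 and 1.01. ANXA1, the partner of S100A11, had 15.04 in A549-ZNF300 and 14.24 in A549-LV5, a log2 ratio of 0.80. Neither partner passed 2-fold by its brightest probe set, whereas S100A10 did and S100A11 did not. ANXA4 (0.97), ANXA6 (-0.64) and ANXA11 (-0.63) had the other largest ratios among annexins at or above the median in both arrays.

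The 3 annexins past 2-fold, named because of their values, were all called absent in A549-LV5. ANXA10 gave 9.32 (log2 signal) in A549-ZNF300 and 0.24 in A549-LV5, and a log2 ratio of 3.18 with the lower signal raised to the array median. ANXA3 had 11.97 in A549-ZNF300 and 3.09 in A549-LV5, or 5.83 on the same footing. ANXA13 had 9.12 in A549-ZNF300 and 3.90 in A549-LV5, or 2.98. Each of them, and S100P too, lay below the array median in A549-LV5 and so counted as detected only through A549-ZNF300. A higher signal in A549-ZNF300 was thus fixed by the filter for these genes. Of the 8 annexins at or above the median in both arrays, ANXA4 had the largest ratio, 0.97 by its brightest probe set, which is under 2-fold. Of 11192 genes that passed this filter, 9.31% were at least 2-fold higher.

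Other partners and receptors of S100 proteins went both ways. Of 24 listed genes, 19 were detected, with 5 past 2-fold upwards and 2 past it downwards, against 13.6% and 15.4% of all detected genes. The median of the log2 ratios was 0.09, but 0.69 as the median over probe sets, 0.51 without a filter and 1.05 without _x_at and _s_at probe sets. MYH9, the heavy chain of the non-muscle myosin that S100A4 binds, had 10.74 in A549-ZNF300 and 10.01 in A549-LV5, a log2 ratio of 0.73. Its paralogue MYH10 had a log2 ratio of 1.26. EZR, which encodes ezrin, the partner of S100P, had 12.20 in A549-ZNF300 and 11.69 in A549-LV5, a log2 ratio of 0.51, with 5 detected probe sets between 0.51 and 2.14. CACYBP, the calcyclin-binding protein that S100A6 attaches to, had a log2 ratio of 0.77. MYH9, EZR and CACYBP were thus higher by less than 2-fold by their brightest probe sets, and MYH10 by more.

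AGER, the gene of the RAGE receptor that binds several secreted S100 proteins, stayed close to the array median in both arrays, with 6.05 in A549-ZNF300 and 6.46 in A549-LV5. SYT1, a member of the export complex of FGF1 and S100A13, had a log2 ratio of 1.25, and ALCAM, a cell adhesion molecule, one of 1.39. PLAU, the urokinase that makes plasmin from plasminogen, had 12.08 in A549-ZNF300 and 13.99 in A549-LV5. Its log2 ratio of -1.90 was the lowest of the list, and it was lower while S100A10, which helps to hold plasminogen at the cell surface, was higher. The other genes past 2-fold, named because of their values, were PLAT, the tissue plasminogen activator (1.71), the potassium channel gene KCNK3 (1.05), both below the array median in A549-LV5, and AHNAK, a large scaffold protein gene (-1.01), whose 3 detected probe sets ran between -1.27 and 2.34. Once dim signals were set to the array median, PLAT had 1.48 and KCNK3 0.75, so KCNK3 was no longer past 2-fold by this probe set. With the signals as deposited, the 3 detected probe sets of KCNK3 ran between 1.05 and 4.41.

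Genes of other EF-hand proteins, which share the calcium-binding fold but not the S100 dimer, were spread about 0. Of 34 listed genes, 27 were detected, 4 of them past 2-fold upwards and 3 downwards. The upward share was 14.8%, close to the 13.6% of all detected genes, and the median of the log2 ratios was -0.04. At or above the median in both arrays, HPCAL1 (-1.32), a neuronal calcium sensor gene, CHP1 (1.27), which encodes a calcineurin-like protein, NUCB2 (-1.24) and the centrin gene CETN2 (1.23) had the largest ratios. TESC (log2 ratio 5.14), also a calcineurin-like protein gene, and NCALD (2.83-fold) were the other 2 genes at least 2-fold higher, both below the array median in A549-LV5, and GCA (-1.15) was the other lower one. These last 3 are named because of their values. The gap between list medians depended on the probe sets used: without those ending in _x_at or _s_at, the medians were 1.12 for the S100 genes, 1.05 for the partners, 0.90 for the annexins and 0.03 for the other EF-hand genes.

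**Figure D3:**
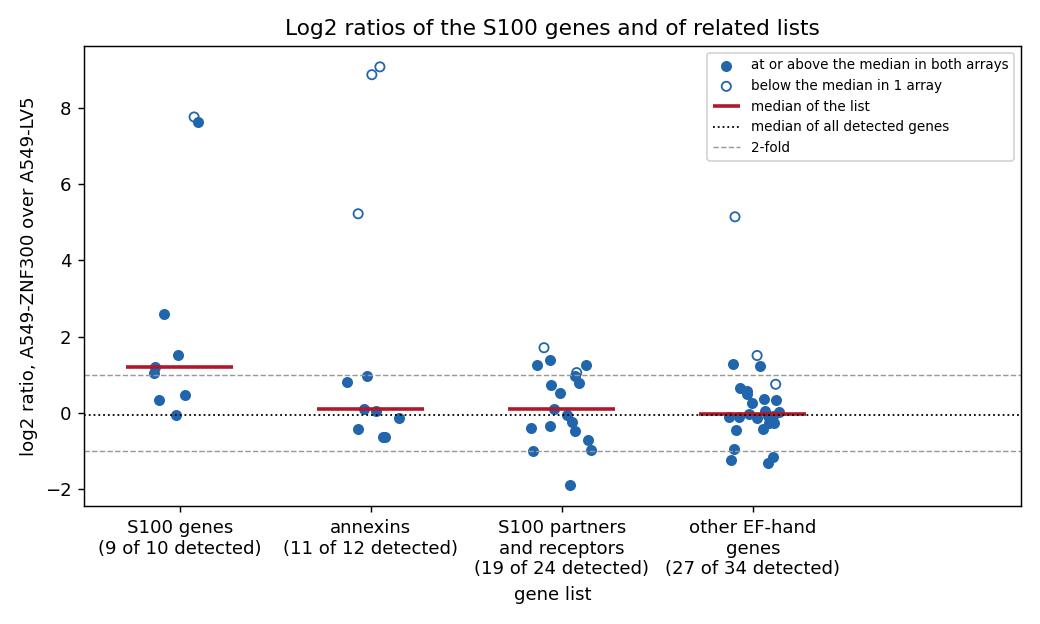
Log2 ratio of A549-ZNF300 over A549-LV5 (vertical axis) for each detected gene of 4 lists (horizontal axis), filled where both signals lay at or above the array median and open where 1 lay below it. The red bars are the list medians, 1.19 for the S100 genes and between -0.04 and 0.11 for the other lists, and the dotted line is the median of all detected genes.

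Markers of epithelial cells also differed between the arrays. Of 6 epithelial markers (KRT7, KRT8, KRT18, KRT19, EPCAM and CDH1), 6 were at least 2-fold higher in A549-ZNF300, against 13.6% of all 13221 detected genes. Their summed signal was 16.22 in A549-ZNF300 and 13.65 in A549-LV5 on the log2 scale. In A549-LV5, KRT18 (log2 signal 13.45), KRT8 (9.77), KRT7 (9.46) and EPCAM (6.47) lay above the array median and were called present. CDH1 (1.20) and KRT19 (2.29) lay below it and were called absent, so they counted as detected only through A549-ZNF300. A549 is an epithelial line. Of 6 fibroblast markers, 3 were detected and all 3 were at least 2-fold higher, against the same 13.6%. However, COL3A1 and LUM lay below the array median in A549-LV5. Their log2 ratios were 0.15 each once dim signals were set to that median. COL1A1 had 2.55 by 1 probe set and 0.40 by the other. The fibroblast markers had a summed log2 signal of 10.67 in A549-ZNF300 and 8.81 in A549-LV5. Leukocyte markers summed to 9.32 in A549-ZNF300 and 9.52 in A549-LV5, with 4 of 6 detected, and endothelial markers to 7.71 in A549-ZNF300 and 7.55 in A549-LV5, with 1 of 5 detected. The part of these markers in the S100 differences was not tested. In a bulk sample, more cells with a transcript and more of it per cell cannot be told apart.

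**Figure D4:**
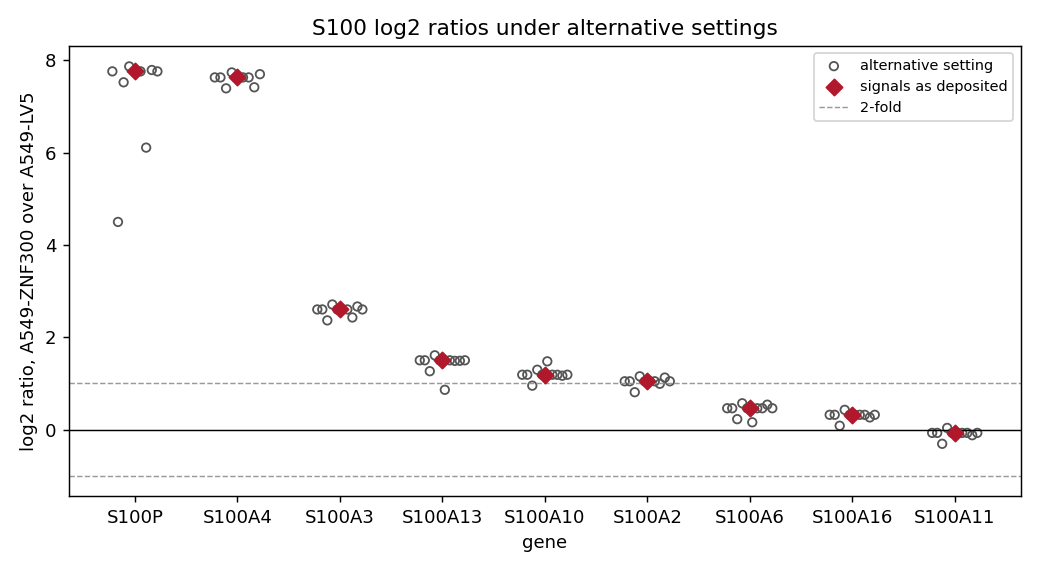
Log2 ratio of A549-ZNF300 over A549-LV5 (vertical axis) of each detected S100 gene (horizontal axis) with the signals as deposited (red diamonds) and under up to 10 alternative settings (open circles). Dashed lines mark 2-fold. S100A4 lies between 7.40 and 7.74, over an A549-LV5 signal that was called absent. S100P falls to 4.50 once its dim A549-LV5 signal is set to the array median, and S100A11 lies on both sides of 0.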

How the data were processed

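A log2 signal per probe set for each of 2 arrays was deposited by the authors, already normalized. The submitters' processing notes list MAS5 and affy, with no version, and the study's methods describe SCAN/UPC; the sources do not settle which produced the signals. A second deposited table covers 8187 probe sets with the same signals and detection calls (present, marginal, absent), used here for the calls. Its own fold changes were not used. It holds no probe set under 2-fold apart and none called absent in both arrays. S100A6, S100A11 and S100A16 therefore have no calls. Of 54675 probe sets, 41097 name 1 gene and were used. Signals were taken as deposited; log2 ratios, counts past 2-fold and medians were computed with Python 3.11.15, pandas 2.3.3 and NumPy 2.4.6, and the computation was tested on simulated data. With 1 array per condition no test was run.

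The members and lists were chosen with earlier results of these data known. From each list, up to 4 genes with the largest absolute log2 ratio and both signals at or above the array median were named, together with ANXA2, ANXA1, EZR, MYH9, AGER and CACYBP, the neighbouring genes with the highest and lowest ratio, ZNF300 and every member. Promoter windows are RefSeq's, on GRCh38.p14.

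The alternatives were centring on medians or housekeeping genes, quantile normalization, no filter, filters at the 75th percentile or requiring both arrays to reach the median, a gene's median over its probe sets, no _x_at or _s_at probe sets, dim signals raised to the array median, 16 added to linear signals, and marks of 1.5-fold and 3-fold.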

Additional observations from a re-analysis of the deposited data

How the results depend on the processing

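Of the 9 detected S100 genes, 8 kept a positive log2 ratio under each alternative that gave them a value, and S100A11 was at 0.04 with median centring and negative otherwise. At the 2-fold mark, the count of S100 genes past it upwards was between 4, with housekeeping centring, and 7, without a filter. The 7 include S100A14, whose signals lay below both array medians. At the marks of 1.5-fold and 3-fold, the counts were 6 and 3. The count past the mark downwards was 0 under each of the 12 alternatives. The matching share of all genes was computed only for signals as deposited and for the filter in both arrays. Median centring moves every log2 ratio by 0.11 upwards and housekeeping centring by 0.24 downwards. With the filter at the median in both arrays, 5 of 8 S100 genes were at least 2-fold higher, against 9.31% of 11192 genes. S100A4 could not be given a value without _x_at and _s_at probe sets, since its only probe set ends in _s_at. The median of the S100 partners was 0.69 as the median over probe sets, 0.51 without a filter and 1.05 without _x_at and _s_at probe sets. Under this last setting the annexins had a median of 0.90 and the S100 genes one of 1.12, with 11 partners, 8 annexins and 8 S100 genes left; the cause was not tested. With housekeeping centring these medians turned to -0.15 for the partners and -0.13 for the annexins, and with both arrays required to reach the median to -0.05 and -0.04. A value was taken as moved when it shifted by more than 0.35, the median SD between probe sets of a gene. No paired analysis was possible because each condition has 1 array. Signals below the array median are near background, and in A549-LV5 S100A4 was called absent and S100A3 marginal. This limits the ratios of S100A4, S100A3, S100P, ANXA3, ANXA10, ANXA13, TESC and NCALD, among others.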
